A study of Homo sapiens with 24 samples.

Results

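The comparison is of HepG2 cells after 24 h with 1 uM BRD8518 against HepG2 cells after 24 h with the DMSO vehicle. It was defined by the titles of the samples, which give 3 arrays with BRD8518 and 3 with DMSO at 24 h, 6 of the 24 arrays of the series, and it takes in every probe set that carries 1 gene symbol. These were 16098 of 53617 probe sets and stood for 14884 genes. HepG2, a cell line from a human liver carcinoma, retains hepatocyte traits and divides in culture. BRD8518 is a small molecule known here only by its code name, and the series concerns compounds that induce TRIB1, the gene of the pseudokinase tribbles 1.

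All groups were HepG2 cells plated at 10000 cells per well and kept in a final 0.25% DMSO. The groups drawn on here are BRD8518 at 24 h (1 uM, 3 arrays) and at 6 h (1 uM, 2 arrays), oncostatin M (OSM) at 24 h (100 ng/mL, 3 arrays), DMSO at 24 h (3 arrays) and DMSO at 6 h (4 arrays). OSM is a cytokine of the interleukin-6 family that signals through the receptor subunit gp130 to JAK kinases and STAT3, and in hepatocytes it is known for switching on acute phase genes. The treatment protocol mentions 6 wells per treatment, and nothing says whether replicate arrays were grown separately. The p-values therefore cover no more than the differences among these arrays, which can be technical in part. RNA was read on a whole-transcript microarray, and levels are log2 values, so that a difference of 1 is a 2-fold change. A change is the BRD8518 mean minus the DMSO mean, with its standard error (SE) from 1 limma fit, and a gene is said to have risen or fallen where the adjusted p was below 0.05. Levels of different genes come from different probes and are not set against each other.

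In dividing liver cells, growth factors and stress act through the ERK, JNK and p38 MAP kinases. These kinases switch on immediate-early transcription factors within minutes, and the factors then raise phosphatases and Sprouty proteins that damp the same kinases. Secreted ligands induced in a second wave can act back on the cell through receptors such as EGFR and gp130. Sterol and fatty acid synthesis is set in hepatocytes largely by the SREBP transcription factors, and entry into S phase by the E2F factors.

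The 6 arrays were alike in quality. Across all 53617 probe sets, named or not, arrays of the same group correlated at 0.992 to 0.994 and arrays of different groups at 0.982 to 0.984. The number of arrays limits the precision, and the median SE of a change was 0.11. Hepatocyte markers were strongly measured on all 6 arrays, among them albumin (ALB) at 12.18, 12.18 and 12.26 with BRD8518, against 12.34, 12.35 and 12.45 with DMSO. APOB, the structural protein of very low density lipoproteins, lay at 12.42 to 12.50 with BRD8518, against 12.46 to 12.59 with DMSO. Neither gene passed the test. Under other settings both did, with ALB lower in 4 of them (−0.25, adjusted p = 0.0030, with quantile normalization) and APOB lower in that 1 (−0.17, limma, adjusted p = 0.014). Markers of other liver cell types were read too. Of 7 macrophage markers 1 (14.3%), the lysosomal protein CD68 (1.19), was higher and 0 were lower, near the 12.1% of all genes that were higher. Of all genes 15.6% were lower. The summed level of these 7 was 12.56 to 12.68 with BRD8518, against 12.46 to 12.51 with DMSO. None of 6 stellate and 8 endothelial markers passed, with summed levels of 7.23 to 7.38 and 8.39 to 8.51 with BRD8518, against 7.41 to 7.69 and 8.27 to 8.37 with DMSO. Under some other settings the macrophage marker LYZ was lower (−0.30, limma, adjusted p = 0.035, with the mean of its probe sets). So were the stellate RGS5 and the endothelial PECAM1, while the endothelial LYVE1 was higher. The part of those cell types in the results was not tested. All 3 BRD8518 arrays carry the letter A in a position code of the labels whose meaning is not stated, while DMSO replicates 1 and 2 carry A and replicate 3 carries B. Within letter A, without DMSO replicate 3, 3574 genes passed and the change of TRIB1, given below with all arrays, was 1.24. One DMSO array at 6 h, replicate 2, stood apart from the other 3. Across the genes tested its correlations to them were 0.973 to 0.981, against up to 0.996 among the others. This array enters the 24 h change only through the shared estimate of the spread, and all 4122 genes called with it were also called without it. Results that use 6 h values are given with and without it.

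BRD8518 changed a large share of the measured genes after 24 h. In all, 4122 of 14884 genes (27.7%) passed, 1800 higher (12.1%) and 2322 lower (15.6%). Most changes were small, with a median rise of 0.52 and a median fall of 0.51 on the log2 scale, and only 279 genes rose (1.87%) and 240 fell (1.61%) by 2-fold or more. Changes of 4-fold or more numbered 47 upward and 16 downward. The median change of all genes was −0.0049. The 3 BRD8518 arrays lay above all 3 DMSO arrays for 2953 genes (19.8%) and below all of them for 3626 genes (24.4%), and 4078 of the genes past the threshold were among these. Without adjustment, 5270 genes had a p under 0.05.

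**Figure D1:**
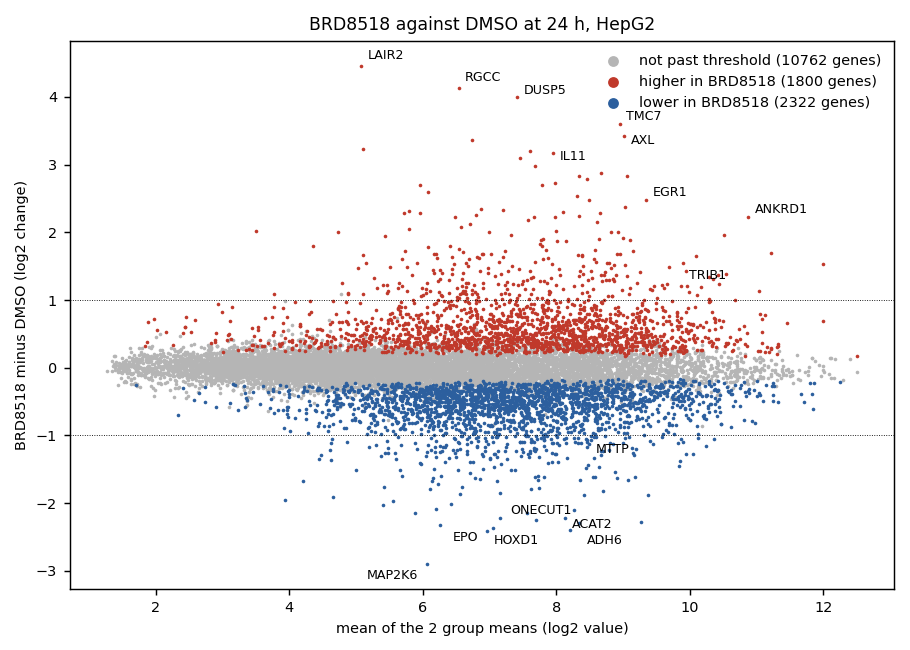
Change in log2 level with BRD8518 minus DMSO at 24 h (vertical axis) against the mean of the 2 group means (horizontal axis, log2), with 1 point per gene for 14884 genes. Red points (1800) were higher with BRD8518, blue points (2322) were lower, grey points did not pass, and dotted lines mark 2-fold changes. The rises reach further from 0 than the falls, from LAIR2 at 4.46 to MAP2K6 at −2.89.

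TRIB1 was at 10.50, 10.51 and 10.42 with BRD8518, against 9.17, 9.31 and 9.34 with DMSO. The groups did not overlap, and the difference was 2.31-fold (log2 change 1.21 ± 0.08 SE, limma, adjusted p = 1.4e-10). TRIB1 encodes a pseudokinase that in liver cells recruits the ubiquitin ligase COP1 to transcription factors such as C/EBP alpha. Its relative TRIB3, a stress-inducible inhibitor of AKT signalling, rose 2.35-fold, at 10.22, 10.35 and 10.28 with BRD8518, against 8.93, 8.90 and 9.31 with DMSO. TRIB2 changed by −0.16 ± 0.11 and did not pass (limma, adjusted p = 0.32), and its arrays overlapped. With the mean of its probe sets TRIB2 changed by −0.27 (adjusted p = 0.0495). The TRIB1 change was 1.39 ± 0.09 at 6 h, and the difference between the 2 times, −0.19 for 24 h minus 6 h, did not pass (limma, adjusted p = 0.42). Without the 6 h DMSO array that stood apart that difference was −0.21 (adjusted p = 0.24).

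The 3 largest rises were those of LAIR2, RGCC and DUSP5. LAIR2, a secreted collagen-binding receptor related to LAIR1, was at 7.15, 7.44 and 7.34 with BRD8518, against 2.56, 2.76 and 3.21 with DMSO, a 22.05-fold difference (4.46 ± 0.23, limma, adjusted p = 1.3e-12). RGCC, a regulator of the cell cycle that binds CDK1, was at 8.47, 8.73 and 8.60 with BRD8518, against 4.51, 4.26 and 4.65 with DMSO, and was 17.5-fold higher. DUSP5, a nuclear phosphatase that inactivates ERK, was at 9.43, 9.35 and 9.45 with BRD8518, against 5.44, 5.36 and 5.46 with DMSO, and was 15.9-fold higher. In each of these the gap between the groups exceeded the spread within them many times over. A second DUSP5 probe set of lower signal rose by 0.67 ± 0.19.

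AXL, a receptor tyrosine kinase that binds GAS6, was at 10.78, 10.71 and 10.68 with BRD8518, against 7.10, 7.28 and 7.52 with DMSO, a 10.7-fold rise (3.42 ± 0.10, limma, adjusted p = 1.2e-16). GPAT3, an acyltransferase that starts triglyceride and phospholipid synthesis from glycerol phosphate, was at 9.19, 9.24 and 9.20 with BRD8518, against 5.82, 6.00 and 6.21 with DMSO. NAGS, which makes the N-acetylglutamate that activates the urea cycle, was at 9.14, 9.26 and 9.13 with BRD8518, against 6.26, 6.12 and 6.22 with DMSO. For AXL, GPAT3 and NAGS every BRD8518 array lay far above every DMSO array. TMC7, a member of the transmembrane channel-like family, rose by 3.60 ± 0.14, and AKAP12, a scaffold for protein kinase A, by 2.73 ± 0.10. LY96, the TLR4 partner also called MD-2, rose by 2.70 ± 0.21, and the cytokine IL18 by 2.59 ± 0.13.

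In size the 20 largest rises spanned 5.79-fold to 22.05-fold. The others were AQP7P3, TMEM156, IL11, TCP11L2, UCA1, LOC100133920, LINC-PINT, MIR21, LIF and LURAP1L. UCA1 and LINC-PINT are long noncoding RNAs, and AQP7P3 is a pseudogene whose probe set may also read AQP7 and its other copies. Of the 20, 19 had also passed at 6 h in the same direction, against 5.62% of all genes, the exception being LY96 (0.21 ± 0.22). For 19 the 24 h change was above the 6 h change by the test of the difference, against 5.96% of all genes, the exception being LINC-PINT. The 20 genes were picked by the size of their 24 h change, which favours a larger change at 24 h. That count is therefore no independent result. LINC-PINT changed by 2.83 at 24 h, against 2.20 at 6 h (difference 0.63, adjusted p = 0.097), and without the 6 h DMSO array that stood apart its difference of 0.77 passed too (limma, adjusted p = 0.011).

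**Figure D2:**
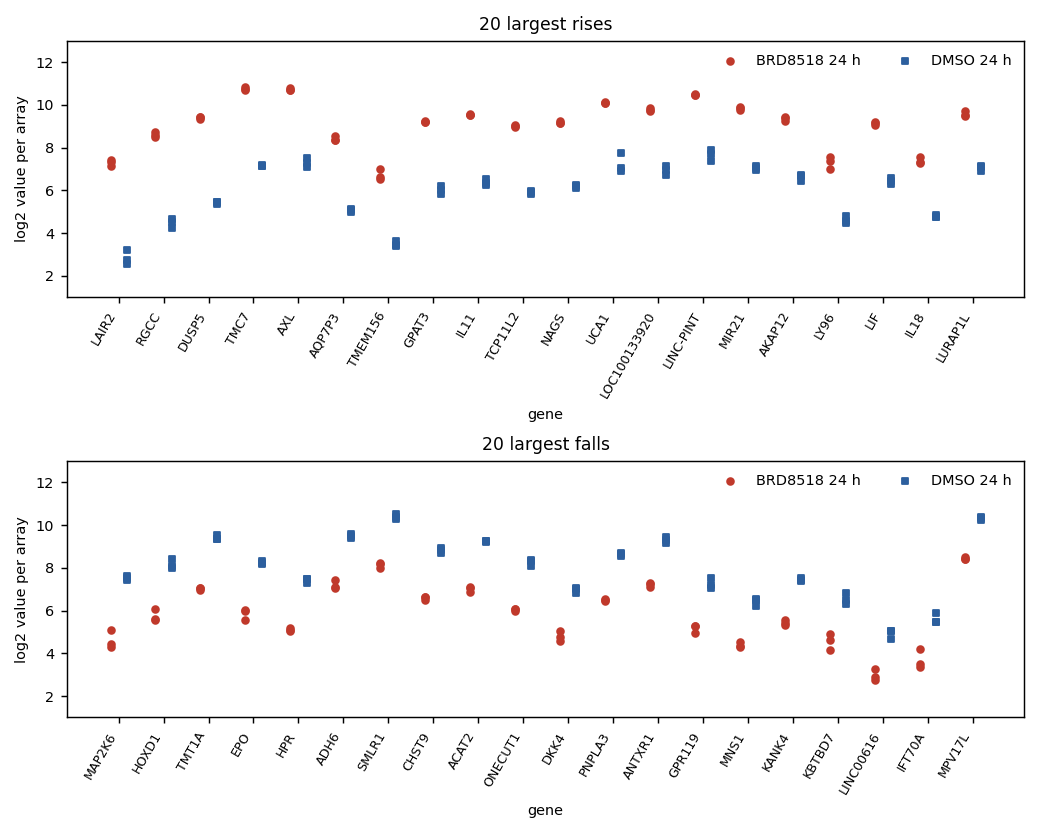
Log2 value on each array for the 20 largest rises (top) and the 20 largest falls (bottom), with red circles for the 3 BRD8518 arrays and blue squares for the 3 DMSO arrays at 24 h. In none of the 40 genes do the groups overlap, as the rule that chose them required. The gap is widest for LAIR2, RGCC and DUSP5 among the rises and for MAP2K6 among the falls.

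Immediate-early transcription factors were still raised 24 h after treatment began. Of 22 measured, 15 were higher and 0 lower, against 12.1% and 15.6% of all genes, and the median change was 0.66. The counts of higher and lower members of the other lists at 24 h stand against the same shares. EGR1, a factor that growth signals induce, was at 10.66, 10.55 and 10.53 with BRD8518, against 7.77, 8.19 and 8.34 with DMSO, a 5.59-fold rise (2.48 ± 0.13, limma, adjusted p = 2.2e-12). A weaker EGR1 probe set rose by 0.50 ± 0.11. The Kruppel-like factors KLF6 and KLF5 rose by 1.67 ± 0.09 and 1.38 ± 0.07, and the AP-1 subunits JUN, FOSL1 and FOSL2 by 1.61 ± 0.08, 1.41 ± 0.07 and 1.29 ± 0.08. Smaller rises were those of IER3 (1.13), KLF10 (0.90), JUNB (0.80), IER2 (0.80), MYC (0.68), ATF3 (0.64), JUND (0.52), EGR3 (0.34) and SRF (0.32), and the EGR3 call was lost under some processing settings. The JUNB gene lies over HOOK2, which fell by 0.35. FOS (0.25 ± 0.16), FOSB (0.19 ± 0.09), EGR4, IER5, KLF2, KLF4 and MAFF did not pass.

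The list as a whole was further from DMSO at 6 h, with a median change of 0.66 at 24 h, against 0.96 at 6 h. For 8 of the 22 genes the 24 h change was below the 6 h change and for 1 it was above (5.12% and 5.96% of all genes). JUNB changed by 0.80 at 24 h, against 1.82 at 6 h, and EGR1 by 2.48 at 24 h, against 3.34 at 6 h. FOSL2 went the other way, with 1.29 at 24 h, against 0.80 at 6 h. Without the 6 h DMSO array that stood apart the counts were 10 below and 1 above.

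Serum response factor (SRF) binds the CArG box, and promoters of 2 of the risen genes are shown because they carry that box close to the transcription start. The sequences are from RefSeq (GRCh38.p14), read 5′ to 3′ along the gene's strand, with the box in capitals. For EGR1 (chr5:138465354-138465425, plus strand) the 2 boxes start 83 and 105 bases before the start of the gene, and for FHL2 (chr2:105438585-105438634, minus strand) the box starts 101 bases before it.
EGR1: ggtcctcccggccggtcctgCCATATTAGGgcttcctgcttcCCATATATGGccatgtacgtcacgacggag
FHL2: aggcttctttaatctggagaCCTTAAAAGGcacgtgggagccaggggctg
A promoter sequence was at hand for 10749 of the genes tested. On either strand of the 250 bases before the start, a CArG box was found in 1.18% of them, in 4.93% of the 203 promoters of genes at least 2-fold higher and in 0.543% of the 184 promoters of genes at least 2-fold lower. A match is a description of these letters and not a measured binding site.

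Of 16 measured targets of SRF, its MRTF cofactors and YAP, which build the contractile cytoskeleton, 11 were higher and 1 lower, with a median change of 0.38. ANKRD1, a muscle ankyrin repeat protein and YAP target, was at 11.97, 12.03 and 11.95 with BRD8518, against 9.63, 9.74 and 9.89 with DMSO, and was 4.69-fold higher. FHL2, a LIM-domain cofactor, was at 7.68, 7.82 and 7.73 with BRD8518, against 6.07, 5.95 and 6.15 with DMSO, and was 3.22-fold higher. TAGLN, the smooth muscle actin-binding protein transgelin, was at 8.43, 8.89 and 8.74 with BRD8518, against 6.96, 6.93 and 7.31 with DMSO. In all 3 genes the groups were well separated. The tropomyosins TPM1 and TPM2 rose by 0.59 ± 0.08 and 0.57 ± 0.13. CALD1 was the 1 lower member, at −0.26 ± 0.08, and its call was lost under some settings.

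Negative regulators of MAP kinase signalling rose alongside. Of 15 measured, 9 were higher and 0 lower, with a median change of 0.51. Besides DUSP5, the dual-specificity phosphatase DUSP1 was at 9.62, 9.59 and 9.53 with BRD8518, against 7.68, 7.61 and 7.76 with DMSO, a 3.72-fold rise. DUSP8, which acts on JNK and p38, rose by 1.80 ± 0.10, and the ERK phosphatase DUSP6 by 0.91 ± 0.08. SPRY4, a Sprouty inhibitor of receptor signalling, rose by 1.55 ± 0.08, and ERRFI1, which binds and blocks EGFR, by 0.71 ± 0.09. DUSP10, DUSP4 and DUSP16 rose by 0.64, 0.51 and 0.43. SPRY2 (−0.21 ± 0.09), DUSP2, DUSP7, DUSP14, ETV4 and ETV5 did not pass. DUSP5 was the member furthest above its own 6 h change, with 3.99 at 24 h, against 2.11 at 6 h (difference 1.88, limma, adjusted p = 3.9e-07, and 1.80 without the 6 h DMSO array that stood apart).

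Secreted ligands formed a further group of risen genes, with 12 of 22 measured higher, 2 lower and a median change of 0.36. IL11, a cytokine that signals through gp130, was at 9.51, 9.53 and 9.57 with BRD8518, against 6.34, 6.27 and 6.51 with DMSO, an 8.97-fold rise (3.16 ± 0.15, limma, adjusted p = 3.4e-13). LIF, another gp130 cytokine, was at 9.21, 9.16 and 9.06 with BRD8518, against 6.30, 6.44 and 6.59 with DMSO, and was 6.48-fold higher. The EGFR ligand epiregulin (EREG) was at 6.61, 6.99 and 6.98 with BRD8518, against 4.56, 4.59 and 4.56 with DMSO. None of these 3 genes overlapped between the groups. CSF1, the growth factor of macrophages, rose by 1.60 ± 0.07, GDF15, a stress cytokine, by 1.53 ± 0.10, and the vasoconstrictor peptide gene EDN1 by 1.45 ± 0.13. The 2 lower members were EPO, which encodes erythropoietin, and DKK4, a Wnt antagonist.

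Among 16 chemokine and NF-kB genes, 8 were higher and 1 lower, with a median change of 0.25. The neutrophil chemokine CXCL8 was at 5.79, 5.91 and 5.63 with BRD8518, against 4.32, 4.38 and 4.19 with DMSO, a 2.79-fold rise. IRAK2, a kinase of Toll-like receptor signalling, rose by 0.95 ± 0.08, CCL20 by 0.69 ± 0.10 and CCL5 by 0.48 ± 0.10. The NF-kB subunit gene NFKB1 fell by 0.40 (SE 0.08). CCL20 changed by 0.69 at 24 h, against 2.23 at 6 h (difference −1.54, limma, adjusted p = 1.5e-07, and −1.48 without the 6 h DMSO array that stood apart).

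Promoters of IL11 and CXCL8 are shown because each holds the letters TGANTCA, the site of AP-1, whose subunits JUN, FOSL1 and FOSL2 rose. They are RefSeq sequences (GRCh38.p14), 5′ to 3′ along the gene's strand, with the match in capitals. The match starts 96 bases before the start of IL11 (chr19:55370533-55370579, minus strand) and 137 bases before that of CXCL8 (chr4:73740412-73740458, plus strand).
IL11: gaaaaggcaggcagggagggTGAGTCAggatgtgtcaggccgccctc
CXCL8: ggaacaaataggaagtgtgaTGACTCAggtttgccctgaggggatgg
On either strand, these letters were found in 5.14% of the 10749 promoters, in 10.3% of those of genes at least 2-fold higher and in 2.17% of those of genes at least 2-fold lower. None of 17 immediate-early promoters and 1 of 14 promoters of SRF and YAP targets held them.

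Of 17 measured genes of JAK-STAT signalling, 7 were higher (41.2%) and 2 lower (11.8%), against 12.1% and 15.6% of all genes. The median change was 0.17. IL6R, the interleukin-6 receptor, was at 9.48, 9.45 and 9.45 with BRD8518, against 7.20, 7.14 and 7.31 with DMSO, a 4.73-fold rise (2.24 ± 0.09, limma, adjusted p = 1.5e-14). PIM1, a survival kinase, was at 9.97, 10.08 and 10.10 with BRD8518, against 8.13, 8.11 and 8.26 with DMSO. The kinase JAK2 rose by 1.25 ± 0.15, the survival proteins MCL1 and BCL2L1 by 1.07 ± 0.13 and 0.57 ± 0.07. SOCS1, which shuts off JAK kinases, was at 5.95, 6.07 and 5.90 with BRD8518, against 7.51, 7.52 and 7.79 with DMSO, and was 3.10-fold lower. SOCS3 changed by 0.23 and STAT3 by 0.17, and neither passed. Nor did the receptor genes LIFR (0.14) and OSMR (−0.07).

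Receptors and adaptors of growth signalling moved both ways, with a median change of 0.085. Of 23 measured, 10 were higher (43.5%) and 4 lower (17.4%), against 12.1% and 15.6% of all genes. EGFR was at 8.69, 8.75 and 8.82 with BRD8518, against 6.92, 6.82 and 6.82 with DMSO, and was 3.74-fold higher. The adaptor GRB10 rose by 1.64 ± 0.08, the ephrin receptor EPHA2 by 1.11 ± 0.12, the hepatocyte growth factor receptor MET by 0.73 ± 0.11 and the insulin receptor substrate IRS1 by 0.60 ± 0.13. MAP2K6, the kinase that activates p38, was at 4.46, 4.29 and 5.11 with BRD8518, against 7.42, 7.61 and 7.51 with DMSO, the largest fall of all genes (−2.89 ± 0.17, 7.44-fold lower, limma, adjusted p = 1.5e-11). GAB1, an adaptor below EGFR and MET, fell by 0.56 (SE 0.13), and the ERK1 gene MAPK3 by 0.42 (SE 0.08).

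Among matrix and epithelial genes, more rose than fell, and many did not pass. The metalloproteinase inhibitor TIMP2 was at 9.77, 9.88 and 9.84 with BRD8518, against 7.86, 7.79 and 7.80 with DMSO, and was 4.03-fold higher, and TIMP1 rose by 1.51 ± 0.16. Of 12 matrix and protease genes measured, 5 were higher and 1 lower. Of 19 keratin and junction genes, 8 were higher and 1 lower, led by KRT23 (1.49 ± 0.10), KRT19 (0.97 ± 0.10) and SNAI1 (0.89 ± 0.09), a repressor of E-cadherin. The tight junction gene CLDN1 fell by 0.42 (SE 0.12). KRT19 also marks bile duct cells, so the markers of that cell type were read as a list. Of 7 measured cholangiocyte markers 2 were higher (KRT19 and SPP1) and 1 lower (PROM1), KRT7 (−0.09), SOX9 (−0.06) and EPCAM (−0.21) did not pass, and their summed level was 12.32 to 12.38 with BRD8518, against 12.14 to 12.20 with DMSO. The part of that cell type in the result was not tested.

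**Figure D3:**
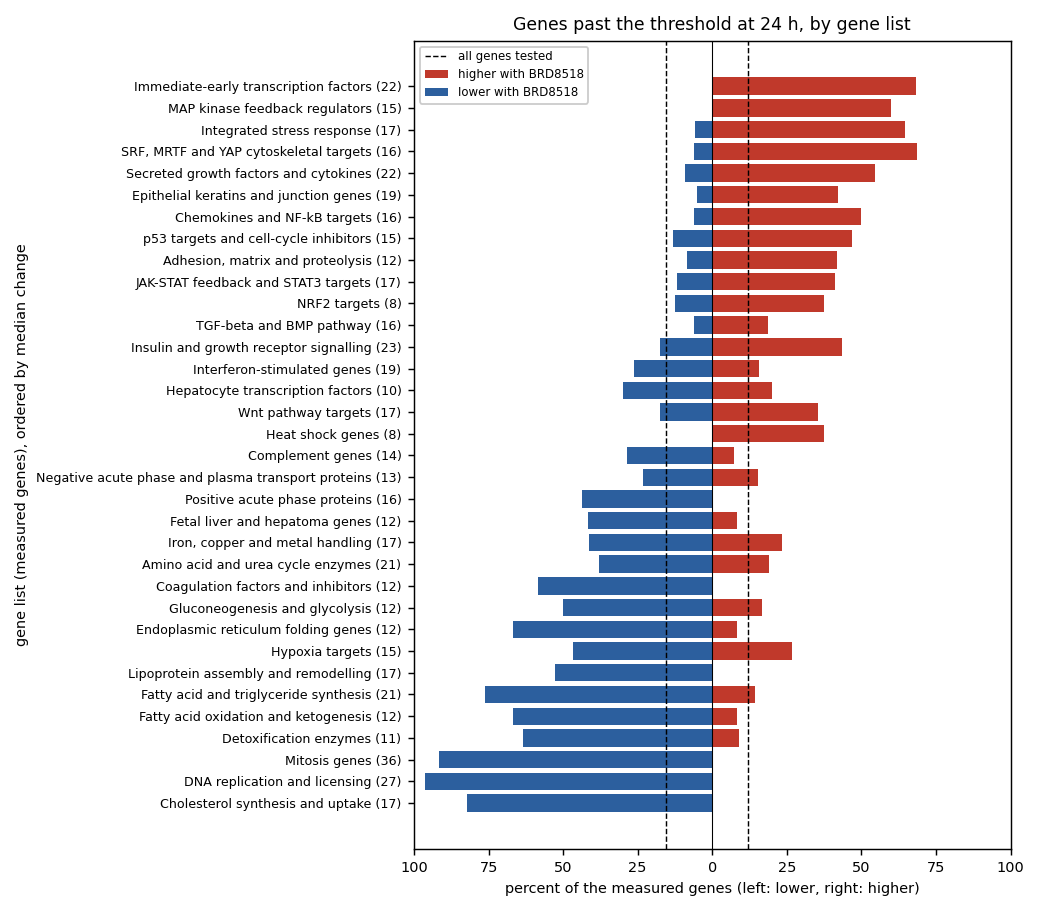
Percent of the measured genes that were higher (red, right) or lower (blue, left) with BRD8518 than with DMSO at 24 h, for each gene list of at least 8 measured genes other than the cell type markers, ordered by median change with the number of measured genes in brackets. Dashed lines mark the share of all genes tested, 12.1% higher and 15.6% lower. Immediate-early factors reach 68.2% higher, and DNA replication genes reach 96.3% lower.

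The 20 largest falls ran from 3.70-fold to 7.44-fold, and the largest, that of MAP2K6, is given above. HOXD1, a homeobox gene, was at 5.60, 6.09 and 5.57 with BRD8518, against 8.42, 7.99 and 8.08 with DMSO, and was 5.31-fold lower. TMT1A, a thiol methyltransferase, was at 7.07, 6.95 and 7.03 with BRD8518, against 9.52, 9.35 and 9.34 with DMSO. EPO was at 6.00, 6.04 and 5.58 with BRD8518, against 8.20, 8.21 and 8.30 with DMSO, and was 5.15-fold lower (−2.36 ± 0.11, limma, adjusted p = 5.0e-13). These genes were lower on every BRD8518 array than on any DMSO array.

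HPR, the haptoglobin-related protein, fell by 2.32 (SE 0.14), and its probe set may also read the near-identical HP. ADH6, an alcohol dehydrogenase, fell by 2.30 (SE 0.24), the sulfotransferase CHST9 by 2.26 (SE 0.22), DKK4 by 2.15 (SE 0.15) and GPR119, a lipid-sensing receptor, by 2.09 (SE 0.18). MNS1 fell by 2.03 (SE 0.23) and lies over TEX9, which fell by 1.36. IFT70A fell by 1.91 (SE 0.27) on the probe set with the higher mean and by 0.38 (SE 0.11) on its other probe set. The others of the 20 were SMLR1, ACAT2, ONECUT1, PNPLA3, ANTXR1, KANK4, KBTBD7, LINC00616 and MPV17L. Of the 20, 10 had passed at 6 h in the same direction, against 8.86% of all genes. ADH6, ANTXR1, CHST9 and MPV17L did so as well once the 6 h DMSO array that stood apart was left out, with 6 h changes of −0.47, −0.46, −0.38 and −0.31. For 17 of the 20 the 24 h change was below the 6 h change, against 5.12% of all genes. These genes were picked by the size of their 24 h fall, so that count is no independent result.

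The sterol pathway fell almost throughout. Of 17 measured genes of cholesterol synthesis and uptake 14 were lower and 0 higher, with a median change of −1.24. ACAT2, the thiolase that joins acetyl-CoA units, was at 6.88, 7.08 and 7.11 with BRD8518, against 9.27, 9.23 and 9.24 with DMSO, a 4.67-fold fall (−2.22 ± 0.08, limma, adjusted p = 2.7e-15). Its gene lies over TCP1 and SOD2 in RefSeq. HMGCS1, the synthase of the next step, was at 7.73, 7.83 and 7.76 with BRD8518, against 9.34, 9.48 and 9.34 with DMSO. IDI1, the isomerase that readies isoprene units, was at 6.15, 6.25 and 6.30 with BRD8518, against 8.08, 8.15 and 8.02 with DMSO, and was 3.61-fold lower. At each step sampled from acetyl-CoA to farnesyl pyrophosphate except PMVK the fall passed the test. For 15 of the 17 genes of the list all BRD8518 arrays lay below all DMSO arrays, against 24.4% of all genes.

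The mevalonate kinase and decarboxylase genes MVK and MVD fell by 1.31 (SE 0.10) and 1.34 (SE 0.13), and the farnesyl pyrophosphate synthase gene FDPS by 1.17 (SE 0.12). Of the later steps, the squalene epoxidase gene SQLE fell by 1.20 (SE 0.09), MSMO1 by 1.27 (SE 0.13), TM7SF2 by 1.24 (SE 0.11), EBP by 1.11 (SE 0.08), NSDHL by 0.99 (SE 0.08) and DHCR7, which makes cholesterol itself, by 0.87 (SE 0.07). HSD17B7 fell by 1.49 (SE 0.24), on a probe set that may also read a pseudogene. STARD4, a sterol carrier, fell by 1.65 (SE 0.15). PMVK changed by −0.37 ± 0.15 (limma, adjusted p = 0.081), the regulator SREBF2 by −0.05 ± 0.08 and its retention partner INSIG1 by 0.04 ± 0.12, and none of these 3 passed. PMVK passed under some other settings. The letters TCACNCCAC, a sterol regulatory element, were found in 1 of the 15 promoters of this list on either strand, that of SREBF2, and in 0.809% of all promoters.

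Fatty acid and triglyceride synthesis fell with it, with 16 of 21 measured genes lower, 3 higher and a median change of −0.47. PNPLA3, a lipid droplet acylhydrolase, was at 6.49, 6.52 and 6.45 with BRD8518, against 8.63, 8.58 and 8.68 with DMSO, a 4.42-fold fall (−2.14 ± 0.09, limma, adjusted p = 1.1e-13). The glucose-sensing factor MLXIPL, also called ChREBP, fell by 1.06 (SE 0.11), the elongase ELOVL2 by 1.03 (SE 0.14), DGAT1, which completes triglycerides, by 0.98 (SE 0.07), the carboxylase ACACB by 0.95 (SE 0.07) and the desaturase FADS2 by 0.90 (SE 0.11). The remaining 10 falls ran from −0.83 to −0.36. The phosphatidate phosphatases LPIN1 and LPIN2 rose by 0.64 ± 0.08 and 0.67 ± 0.09 and the acyl-CoA synthetase ACSL1 by 0.44 ± 0.08. THRSP and ELOVL5 did not pass.

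**Figure D4:**
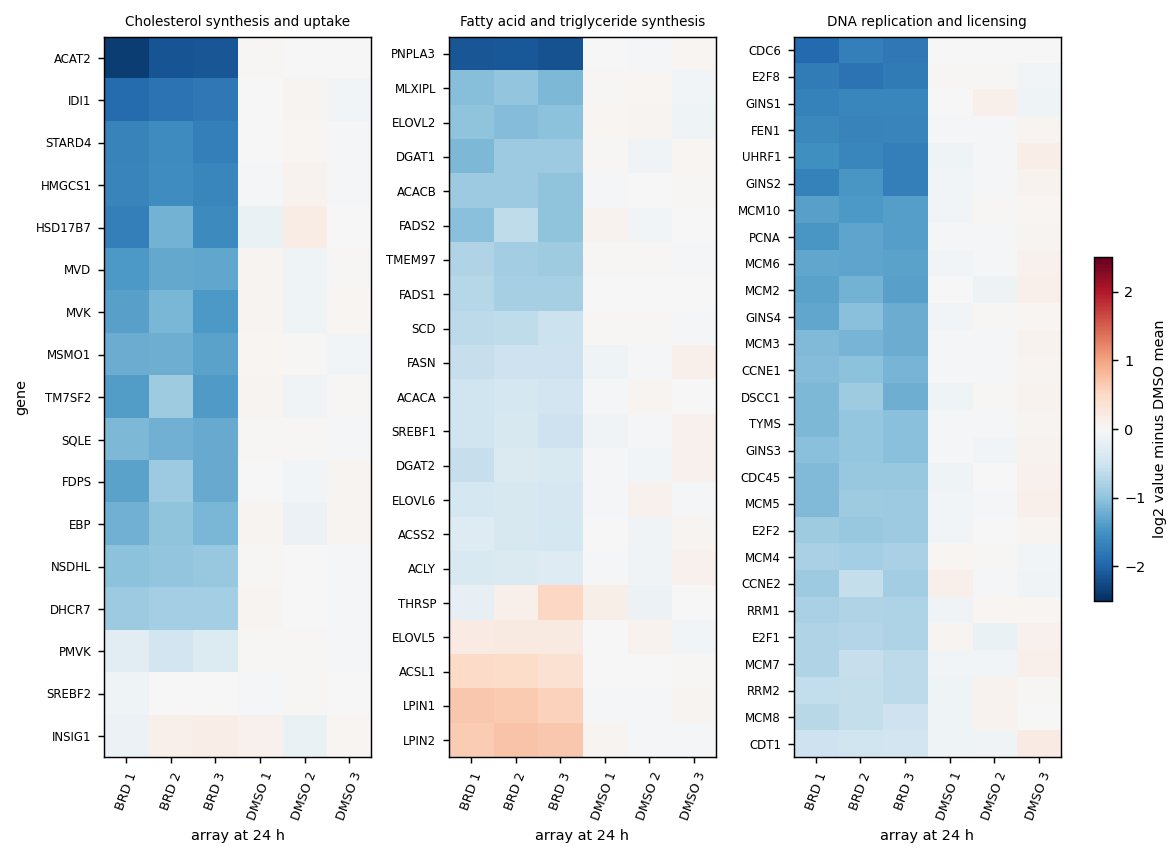
Heat maps of the log2 value on each 24 h array minus the DMSO mean (colour scale, blue lower and red higher), with genes down the side and the 3 BRD8518 arrays left of the 3 DMSO arrays, for all measured genes of cholesterol synthesis (17), fatty acid and triglyceride synthesis (21) and DNA replication (27). The BRD8518 columns are blue for nearly every gene except INSIG1 and SREBF2 in the first panel and THRSP, ELOVL5, ACSL1, LPIN1 and LPIN2 in the second.

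Genes of fatty acid oxidation and ketogenesis were mostly lower as well. Of 12 measured, 8 were lower and 1 higher, with a median change of −0.49. ACAA2, HADH and ACAA1, enzymes of beta oxidation, fell by 0.96 (SE 0.10), 0.82 (SE 0.07) and 0.80 (SE 0.08), and the thioesterases ACOT1 and ACOT2 by 1.24 (SE 0.19) and 0.61 (SE 0.13). CPT2 fell by 0.80 (SE 0.14) on 1 probe set and changed by −0.079 on another that did not pass. The hormone FGF21 rose by 0.41 ± 0.11. KLB, the co-receptor of FGF21 and FGF19, was at 8.14, 8.16 and 8.06 with BRD8518, against 9.78, 9.58 and 9.60 with DMSO, and was 2.90-fold lower.

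Lipoprotein genes fell in part. Of 17 measured, 9 were lower and 0 higher, with a median change of −0.39. MTTP, the transfer protein that loads lipid onto APOB, was at 7.88, 7.99 and 7.88 with BRD8518, against 9.14, 8.93 and 8.85 with DMSO, a 2.08-fold fall (−1.06 ± 0.18, limma, adjusted p = 0.0001). APOB itself changed by −0.06 ± 0.07 and did not pass (limma, adjusted p = 0.58). With quantile normalization of the arrays the change of APOB was −0.17 and passed (adjusted p = 0.014). APOM and the cholesterol esterifying enzyme LCAT, both of HDL, fell by 1.25 (SE 0.10) and 1.11 (SE 0.10), APOC3, which slows triglyceride clearance, by 1.09 (SE 0.13), and APOA1, the main HDL protein, by 0.63 (SE 0.15). SAR1B, APOA4, APOA5 and APOH fell by 0.59, 0.54, 0.43 and 0.39, and the APOA5 call was lost under some settings. PLTP (−0.19), APOC1 (−0.05), APOE (−0.02), TM6SF2 (0.10), APOA2 (0.13), ANGPTL8 (0.20) and LRP1 (0.21) did not pass.

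MTTP changed by −1.06 at 24 h, against −0.0026 at 6 h, and the difference of −1.05 passed (limma, adjusted p = 0.012). Without the 6 h DMSO array that stood apart the 6 h change was −0.27 and the difference −0.79 (adjusted p = 0.00015).

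Plasma proteins that hepatocytes secrete were mostly lower or did not pass. Of 16 positive acute phase genes, which inflammation raises in the liver, 7 were lower and 0 higher, with a median change of −0.14. The copper oxidase ceruloplasmin (CP) was at 8.91, 8.92 and 8.83 with BRD8518, against 10.00, 10.05 and 10.00 with DMSO, a 2.19-fold fall. Haptoglobin (HP) and hemopexin (HPX) fell by 0.80 (SE 0.10) and 0.76 (SE 0.10), and the fibrinogen chains FGG, FGA and FGB by 0.66, 0.50 and 0.42. SAA1 (0.22), LBP (0.22), HAMP (0.06) and C3 (0.03) did not pass. Of 12 coagulation genes 7 were lower and 0 higher, led by F11 (−1.39 ± 0.12) and CPB2 (−1.12 ± 0.14). Of 14 complement genes 4 were lower (28.6%) and 1 higher (7.14%), against 15.6% and 12.1% of all genes, and 9 did not pass. The falls in CFI (−0.82 ± 0.09) and C5 (−0.77 ± 0.12) were the largest. IGFBP1, a binding protein of insulin-like growth factors, went against this trend at 11.51, 11.57 and 11.39 with BRD8518, against 9.63, 9.39 and 9.58 with DMSO, and was 3.88-fold higher.

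Hepatocyte markers as a list held 10 lower and 0 higher of 17 measured, with a median change of −0.39. Their summed level was 15.13 to 15.20 with BRD8518, against 15.37 to 15.45 with DMSO. Among the transcription factors that set hepatocyte identity, ONECUT1, also called HNF6, was at 6.00, 6.06 and 6.08 with BRD8518, against 8.33, 8.35 and 8.11 with DMSO, and was 4.65-fold lower. FOXA1, a pioneer factor, fell by 0.67 (SE 0.07) and the fatty acid sensor PPARA by 0.37 (SE 0.11), while TBX3 and PROX1 rose by 0.67 ± 0.06 and 0.18 ± 0.07. The calls of PPARA and PROX1 were lost under some settings. FOXA2 (−0.11 ± 0.06), FOXA3 (−0.12), ONECUT2 (0.17), ESRRA (0.06) and ATF5 (0.03) did not pass.

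Of 11 detoxification genes 7 were lower and 1 higher, with a median change of −0.55. The glutathione transferases GSTA1 and GSTA2 fell by 1.28 (SE 0.16) and 1.77 (SE 0.34) and may share probes, while GSTA4 fell by 1.10 (SE 0.08) and the monooxygenase FMO5 by 1.23 (SE 0.11). Enzymes of amino acid breakdown held 8 falls (38.1%) and 4 rises (19%) in 21, against 15.6% and 12.1% of all genes. AGXT, which detoxifies glyoxylate, fell by 1.42 (SE 0.11), and AMT and GLDC, parts of the glycine cleavage system, by 1.02 (SE 0.08) and 0.91 (SE 0.07). The rises were those of NAGS, the cystathionine lyase CTH (1.87 ± 0.14), KYNU (0.87 ± 0.13) and HPD (0.36 ± 0.08).

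DNA replication transcripts were lower with BRD8518 almost throughout. Of 27 measured genes 26 were lower and 0 higher, with a median change of −1.08, and the 1 that did not pass was CDT1 (−0.51). CDC6, which loads the replicative helicase, was at 7.67, 7.89 and 7.81 with BRD8518, against 9.60, 9.61 and 9.61 with DMSO, a 3.52-fold fall (−1.81 ± 0.08, limma, adjusted p = 1.1e-13). The repressor E2F8 was at 6.77, 6.68 and 6.74 with BRD8518, against 8.55, 8.55 and 8.45 with DMSO. FEN1, which trims Okazaki fragments, was at 6.07, 6.01 and 6.04 with BRD8518, against 7.66, 7.63 and 7.76 with DMSO. On all 27 genes the 3 BRD8518 arrays lay below the 3 DMSO arrays, against 24.4% of all genes. GINS1 and GINS2, subunits of the helicase complex, fell by 1.65 (SE 0.14) and 1.61 (SE 0.12), and UHRF1, which copies DNA methylation to the new strand, by 1.63 (SE 0.11).

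Of 36 mitosis genes 33 were lower and 0 higher, with a median change of −0.75. The spindle motor KIF11 fell by 1.29 (SE 0.10), survivin (BIRC5) by 1.17 (SE 0.10), KIF20A by 1.12 (SE 0.07), KIF15 by 1.12 (SE 0.12), Aurora B (AURKB) by 1.08 (SE 0.09) and the checkpoint protein MAD2L1 by 1.00 (SE 0.10). BUB3 (−0.09), PTTG1 (−0.04) and ECT2 (0.15) did not pass. In these bulk samples, fewer cells of a kind and less RNA per cell cannot be told apart. Beside this, of 15 p53 targets and cell-cycle inhibitors 7 were higher and 2 lower, against 12.1% and 15.6% of all genes. Among the higher members, RGCC rose 17.5-fold and the polo-like kinases PLK3 and PLK2 by 1.87 ± 0.08 and 0.49 ± 0.10. BBC3 rose by 0.50 ± 0.15, and its call was lost under some settings. The 2 lower members were BAX and SESN1, which fell by 0.87 (SE 0.13) and 0.82 (SE 0.13). At 6 h, 19 of the 27 replication genes were lower (22 without the 6 h DMSO array that stood apart), against 8.86% of all genes. For 20 of 27 the 24 h change was below the 6 h change (22 without that array), against 5.12% of all genes.

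Promoters of 3 of these genes are shown because they hold letters that E2F factors bind, TTTCGCGC, TTTGGCGC or TTTCCCGC on either strand. They are RefSeq sequences (GRCh38.p14), 5′ to 3′ along the gene's strand, with the matches in capitals. MCM6, a subunit of the helicase that fell by 1.31 on the log2 scale, has 4 matches, which overlap in 2 pairs (chr2:135876502-135876615, minus strand), GINS2 has 1 (chr16:85688958-85689005, minus strand) and UHRF1 has 1, which starts 14 bases before the gene (chr19:4909467-4909500, plus strand).
MCM6: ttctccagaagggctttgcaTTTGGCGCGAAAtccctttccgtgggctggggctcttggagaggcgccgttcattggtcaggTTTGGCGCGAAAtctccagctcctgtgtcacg
GINS2: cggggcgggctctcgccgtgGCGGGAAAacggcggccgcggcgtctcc
UHRF1: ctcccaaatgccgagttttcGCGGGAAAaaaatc
Such letters were found in 10 of the 21 promoters at hand for this list (47.6%), in 3.2% of all promoters, in 9.78% of those of genes at least 2-fold lower and in 1.97% of those of genes at least 2-fold higher.

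Stress pathways split. Of 17 genes of the integrated stress response, which follows amino acid shortage and unfolded proteins through the factor ATF4, 11 were higher and 1 lower, with a median change of 0.48. The asparagine synthetase ASNS was at 8.64, 8.84 and 8.67 with BRD8518, against 6.92, 6.997 and 7.03 with DMSO, and was 3.33-fold higher. VLDLR, a lipoprotein receptor, was at 6.87, 7.15 and 6.92 with BRD8518, against 5.29, 5.03 and 5.23 with DMSO, and DDIT3, also called CHOP, rose by 1.08 ± 0.10. The groups did not overlap in any of them. ATF4 itself changed by 0.06 and did not pass. The serine synthesis gene PSPH fell by 0.62 (SE 0.09), while PHGDH (0.03) and PSAT1 (−0.06) did not pass.

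Genes of protein folding in the endoplasmic reticulum fell, with 8 of 12 lower and 1 higher and a median change of −0.28. SDF2L1, MANF and CRELD2 fell by 1.23 (SE 0.14), 0.95 (SE 0.06) and 0.85 (SE 0.16), and the factor XBP1 by 0.65 (SE 0.08). The 1 rise was in ERN1, the sensor also called IRE1 that splices XBP1 mRNA, at 8.67, 8.74 and 8.74 with BRD8518, against 6.72, 6.93 and 6.85 with DMSO (3.68-fold). Among 8 targets of the antioxidant factor NRF2, SRXN1, TXNRD1 and OSGIN1 rose by 1.07 ± 0.10, 1.03 ± 0.07 and 0.59 ± 0.12, while the haem oxygenase HMOX1 fell by 1.10 (SE 0.08).

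Of 15 hypoxia targets 7 were lower (46.7%) and 4 higher (26.7%), against 15.6% and 12.1% of all genes. Besides EPO, the collagen cross-linker LOX was at 6.96, 6.89 and 6.73 with BRD8518, against 8.73, 8.60 and 8.59 with DMSO, and was 3.43-fold lower, and the lipid droplet protein HILPDA fell by 1.23 (SE 0.11). NDRG1 rose by 1.01 ± 0.10 and VEGFA by 0.31 ± 0.09. The metallothioneins moved both ways. MT1E, MT2A and MT1M rose by 1.51 ± 0.14, 1.37 ± 0.11 and 0.40 ± 0.13, while MT1F fell by 0.51 (SE 0.15). The calls of MT1M and MT1F were lost under some settings. MT1G (0.22), MT1H (−0.08) and MT1X (−0.32) did not pass, and members of that family may share probes.

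MicroRNA precursors were measured by 1072 of the genes tested. Such a probe set detects the precursor or its host transcript and says nothing of the mature form. In all, 61 were higher and 22 lower, and by 2-fold or more 14 rose and 4 fell. These were 5.69% higher and 2.05% lower, below the shares of 12.1% and 15.6% over all genes. The MIR21 probe set was at 9.76, 9.87 and 9.92 with BRD8518, against 6.97, 7.06 and 7.15 with DMSO, a 6.91-fold rise (2.79 ± 0.14, limma, adjusted p = 5.9e-13), while VMP1, the protein-coding gene it lies in, changed by 0.05 and did not pass. The mature sequences of the best known precursors among the rises follow, from RefSeq (GRCh38.p14), 5′ to 3′, with the seed, bases 2 to 8, in capitals. All but MIR21 were chosen after their values were seen. They lie at chr17:59841273-59841294 (plus strand, miR-21-5p), chr7:130876748-130876769 (minus, miR-29a-3p), chr5:160485372-160485393 (plus, miR-146a-5p), chrX:45746180-45746202 (minus, miR-221-3p), chrX:45747036-45747056 (minus, miR-222-3p) and chr19:13836289-13836310 (minus, miR-24-3p).
hsa-miR-21-5p: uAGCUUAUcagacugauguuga
hsa-miR-29a-3p: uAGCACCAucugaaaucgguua
hsa-miR-146a-5p: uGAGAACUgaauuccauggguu
hsa-miR-221-3p: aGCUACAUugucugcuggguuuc
hsa-miR-222-3p: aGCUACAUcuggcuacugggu
hsa-miR-24-3p: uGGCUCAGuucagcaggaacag
The miR-221-3p and miR-222-3p sequences share the seed GCUACAU. Their precursors lie close together on the X chromosome and both rose. MIR221 was at 6.08, 5.84 and 5.88 with BRD8518, against 3.96, 4.47 and 4.37 with DMSO, and MIR222 at 6.22, 5.87 and 6.12 with BRD8518, against 4.57, 5.02 and 4.95 with DMSO. The MIR29A probe set rose by 2.02 ± 0.20, MIR146A, whose mature form is known to damp IRAK1 and TRAF6, by 1.68 ± 0.10 and MIR24-2 by 1.05 ± 0.10. MIR3189 rose by 2.18 ± 0.19 and lies inside GDF15, which rose as well, so the 2 cannot be told apart.

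Set against 6 h, more genes passed at 24 h. At 6 h 2155 genes passed (14.5%), 836 higher (5.62%) and 1319 lower (8.86%). These came from 2 BRD8518 and 4 DMSO arrays, against 3 of each at 24 h, and the part of this in the counts was not tested. Without the DMSO array that stood apart, 3345 genes passed at 6 h and 5315 at 24 h. Of the 1800 genes higher at 24 h, 575 were also higher at 6 h, which is 31.9% of the 24 h list and 68.8% of the 6 h list. Of the 2322 genes lower at 24 h, 778 were lower at 6 h, which is 33.5% of the 24 h list and 59.0% of the 6 h list. Only 28 genes were higher at 24 h and lower at 6 h, and 18 the reverse. The change itself differed between the times for 1649 genes (11.1%), with 887 above and 762 below the 6 h change, and for 2741 without that array.

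EGFR, JAK2 and most sterol genes were further from DMSO at 24 h than at 6 h. EGFR changed by 1.90 at 24 h, against 0.21 at 6 h (difference 1.69, limma, adjusted p = 3.9e-07, and 1.77 without the 6 h DMSO array that stood apart). JAK2 changed by 1.25 at 24 h, against 0.22 at 6 h (difference 1.03, and 1.18 without it). HMGCS1 changed by −1.61 at 24 h, against 0.16 at 6 h (difference −1.77, and −1.72 without it). In the list of sterol genes the 24 h change was below the 6 h change for 12 of 17 and above it for 0 (14 and 0 without that array). With all arrays the shares of all genes were 5.12% below and 5.96% above. EDN1 showed the opposite order, with 1.45 at 24 h, against 2.97 at 6 h (difference −1.51, and −1.50 without it).

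**Figure D5:**
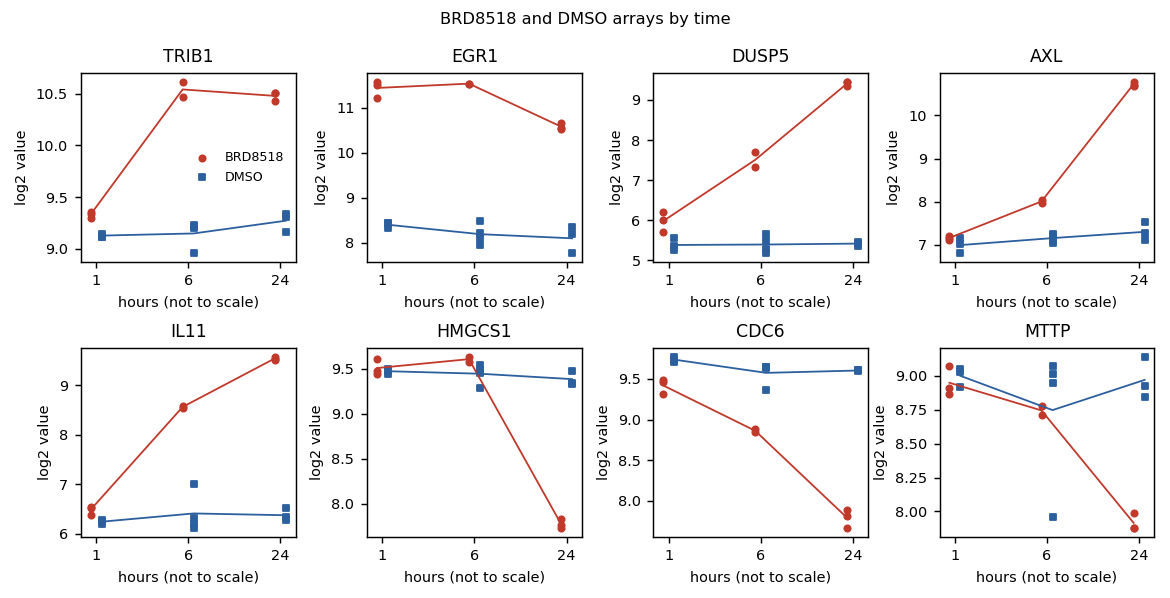
Log2 value on each array at 1, 6 and 24 h (horizontal axis, not to scale) for 8 genes, with red circles for BRD8518 (3, 2 and 3 arrays), blue squares for DMSO (3, 4 and 3 arrays) and lines through the group means. EGR1 is already high at 1 h and TRIB1 at 6 h, DUSP5, AXL and IL11 are highest at 24 h, and HMGCS1 is lower at 24 h alone. One DMSO array at 6 h lies apart for MTTP and IL11.

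BRD8518 and OSM were set against each other directly at 24 h, without the shared DMSO arrays. In this test 3458 genes passed (23.2%), 1623 higher with BRD8518 (10.9%) and 1835 lower (12.3%). With arrays centred on their medians the larger share turned round, to 1891 higher and 1540 lower. TRIB1 averaged 10.48 with BRD8518 and 9.84 with OSM, a difference of 0.64 ± 0.08 (limma, adjusted p = 3.4e-06). AXL averaged 10.72 with BRD8518 and 6.97 with OSM, LAIR2 averaged 7.31 with BRD8518 and 2.91 with OSM, and EGFR averaged 8.76 with BRD8518 and 6.49 with OSM. All 3 were thus far higher with BRD8518, and so were DUSP5 (by 3.82), IL11 (by 3.25), ANKRD1 (by 2.86) and LIF (by 2.48).

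Acute phase genes ran the other way, with 0 of 16 higher with BRD8518 and 12 lower, and a median difference of −1.02. Haptoglobin (HP) averaged 8.72 with BRD8518 and 11.33 with OSM, and fibrinogen beta (FGB) averaged 9.76 with BRD8518 and 11.69 with OSM. SOCS1 averaged 5.97 with BRD8518 and 9.02 with OSM, and JUNB averaged 7.92 with BRD8518 and 9.36 with OSM. Some genes did not differ detectably between the treatments. IGFBP1 averaged 11.49 with BRD8518 and 11.74 with OSM (difference −0.25 ± 0.14, limma, adjusted p = 0.22). HMGCS1 averaged 7.78 with BRD8518 and 7.67 with OSM (0.10 ± 0.08, limma, adjusted p = 0.40). Its list went another way, with 10 of 17 sterol genes lower with BRD8518 than with OSM and 1 higher. The shares of all genes were 12.3% and 10.9%, and the median difference of the list was −0.38.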

How the data were processed

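The authors deposited log2 expression values per probe set for 24 arrays of HepG2 RNA, made by RMA (background correction, quantile normalization and summary across probes) with oligo, as named in the submitters' processing notes. Software versions and the probe sets' genome build were not given in the sources used here. RMA draws all arrays to 1 distribution, so a change is relative to the bulk of genes. Probe sets were named from the platform annotation: 16098 of 53617 carried 1 symbol and 37519 are unnamed here. For a gene with several probe sets, the one with the highest mean over the arrays was kept, which gave 14884 genes.

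Groups were taken from the sample titles, and replicate numbers follow accession order. One linear model over all 8 groups was fitted with limma 3.58.1 in R 4.3.3 (lmFit, eBayes, prior degrees of freedom 5.30, total 21.3) and checked on simulated data. Contrasts were BRD8518 minus DMSO at 24 h and at 6 h, their difference, and BRD8518 minus OSM at 24 h. P-values were adjusted by the Benjamini-Hochberg method over all genes of a contrast, and the threshold was 0.05. Within the fit no sample was dropped or imputed. Values of second probe sets come from a fit of each probe set on its own. A list's summed level is the log2 of its members' summed linear values.

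The text names the 20 largest rises and falls among genes past the threshold whose groups did not overlap, the tribbles genes, APOB and MTTP, at most 6 risen and 6 fallen members of a list, and all members of 5 lists. Other names, mostly list members that did not pass or further microRNA precursors, were chosen after their values were seen. The members and lists were chosen with earlier results of these data known. Promoters and microRNAs are RefSeq sequences of GRCh38.p14, matched by symbol. Alternatives covered filtering, scaling, moderation, weights, probe set choice, the position code and left-out arrays. Figures were drawn with matplotlib 3.10.9.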

Additional observations from a re-analysis of the deposited data

Results flagged for a closer look

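The change with BRD8518 differed between 24 h and 6 h by the test of the difference itself for 1649 genes. Of all genes tested, the 10 furthest above the 6 h change were LAIR2 (difference 3.37), TCP11L2 (2.70), AXL (2.57), TMEM156 (2.54), AQP7P3 (2.53), LY96 (2.49), TMC7 (2.27), DLX3 (2.13), GPAT3 (1.995) and NAGS (1.99). Without the 6 h DMSO array that stood apart these were 3.42 for LAIR2, 2.79 for TCP11L2, 2.54 for AXL, 2.55 for TMEM156, 2.70 for AQP7P3, 2.69 for LY96, 2.46 for TMC7, 2.01 for DLX3, 2.04 for GPAT3 and 1.94 for NAGS.

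The 10 furthest below were MAP2K6 (−2.58), DKK4 (−2.36), TMT1A (−2.30), CHST9 (−2.22), ADH6 (−2.21), MIXL1 (−2.17), CADM1 (−2.10), MNS1 (−2.09), LEAP2 (−2.08) and HOXD1 (−2.02). Without that array they were −2.49 for MAP2K6, −2.22 for DKK4, −2.13 for TMT1A, −1.88 for CHST9, −1.83 for ADH6, −2.19 for MIXL1, −1.74 for CADM1, −1.75 for MNS1, −2.03 for LEAP2 and −2.02 for HOXD1. All 20 kept their call.

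One DMSO array at 6 h, replicate 1, had a TRIB1 level of 8.96, against 9.23, 9.20 and 9.21 on the other 3, and its gap was 0.893 of the group's range. The cut used to flag a group by this measure lies below that value, and chance alone passes the cut in about 1 in 20 groups. The 37519 probe sets without a gene symbol here, which enter no comparison above, held 3627 past the threshold between BRD8518 and DMSO at 24 h (9.67%), 1633 higher and 1994 lower.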

How the results depend on the processing

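With BRD8518 against DMSO at 24 h, the count of 4122 genes ran from 3514 to 5585 over the settings tried, within 1.5 times throughout, from 3539 to 3704 when 1 array of the compared groups was left out, and was 5315 without DMSO 6 h replicate 2. The TRIB1 change passed in all of them and ran from 1.15 to 1.24 with 1 of those arrays left out. The count of genes whose change differed between 24 h and 6 h moved more. It was 1649 as reported, 875 with only the groups compared in the fit, 2866 with array weights, 2741 without DMSO 6 h replicate 2 and 1018 without BRD8518 6 h replicate 2, so that leaving out 1 array gave 1018 to 2741. With arrays centred on their medians its split was 711 above and 939 below, against 887 and 762 as reported. BRD8518 against OSM gave 3458 genes, 5286 with array weights, 2741 to 3087 with 1 array of the compared groups left out, and 4741 without DMSO 6 h replicate 2. Centring turned its split to 1891 higher and 1540 lower, against 1623 and 1835 as reported. The cause of these shifts was not tested. Of 296 named genes past the threshold, 257 kept their call in all 17 settings and 39 lost it in some, of 58 not past it 18 gained one, and 0 changed sign. Over all lists and settings, 101 counts of list members moved by more than 1.5 times. No paired analysis was possible because the labels give no replicate numbers. Of 2388 genes with a mean level under 4, 98 passed, and whether lower signal or fewer changes lies behind this was not tested.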

Other observations

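Of 19 interferon-stimulated genes 3 were higher and 5 lower with BRD8518 than with DMSO, against 12.1% and 15.6% of all genes. IFIH1, a sensor of double-stranded RNA, changed by −1.30, USP18, which removes ISG15 from proteins, by −1.02 and IFIT3 by −0.94, while IFITM2 changed by 0.65. Of 16 genes of the TGF-beta and BMP pathway 3 were higher, the transcription factor genes TGIF1 (0.93) and SMAD3 (0.77) and the repressor SKIL (0.63), and 1 was lower, BAMBI (−0.34). Of 12 fetal liver and hepatoma genes 1 was higher and 5 lower, among them TSPAN8 (−0.90), PEG10 (−0.49) and AFP, which encodes alpha-fetoprotein (−0.39).

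Glycolysis and gluconeogenesis held 6 falls and 2 rises in 12 genes. The mutase PGAM1 changed by −0.91 and the lactate dehydrogenase LDHA by −0.56, while the hexokinase HK1 changed by 0.67. Of the gluconeogenesis genes, PCK2 changed by 0.33, with a call lost under some settings, and PCK1 (−0.04) and PC (0.06) did not pass. Iron and copper genes held 4 rises and 7 falls in 17. BMP6, which signals iron load to hepatocytes, changed by 1.10 and the haemochromatosis gene HFE by −0.81. HAMP, which encodes hepcidin, changed by 0.06 and did not pass.

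By kind of gene, 1647 of 11916 protein-coding genes were higher (13.8%) and 2145 lower (18%), against 12.1% and 15.6% of all genes. Of 1398 long noncoding RNA genes, 61 were higher (4.36%) and 125 lower (8.94%). Of 1072 microRNA precursors, 61 were higher (5.69%) and 22 lower (2.05%). The part of signal level in these shares was not tested.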
